A study of Mus musculus with 4 samples.

Results

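The subject here is the tubulin genes Tubb4a, Tubb2a, Tubb2b, Tubb5, Tubb6, Tuba1a, Tuba1b, Tuba4a and Tubg1 together with Tppp, chosen by gene symbol as 10 of the 53465 genes listed in the count data. All 10 were found under their symbols and all 10 passed the filter on low counts. RNA-Seq was performed on primary (1°) mouse oligodendroglial cell (OGC) cultures prepared from newborn forebrain and differentiated for 3 days, and the comparison asked how loss of the zinc finger protein Zfp276 alters the transcriptome of differentiating oligodendrocytes (OLs). The ctrl cells were Zfp276 flox/flox without Cre, and the Zfp276cko cells were Zfp276 flox/flox with a Sox10::Cre transgene. The mice behind the cultures also carried a Rosa26 stopflox tdTomato allele and were of a mixed C3H and C57Bl/6J background. There were 2 libraries per genotype, each from a preparation of 3 mice, so that the replicates are preparations of pooled mice.

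Per the paper, Sox10::Cre acts in oligodendroglial cells from the precursor stage on. Whether other cells of the culture kept both Zfp276 copies was not measured here. Zfp276 itself had 1648 and 2230 normalized counts in the ctrl libraries and 490 and 503 in the Zfp276cko libraries, or 25.6% of the ctrl mean. Normalized counts are reads per gene scaled to the mean library size of the 4 libraries. Sox10, the defining transcription factor of the lineage, had 18135 and 20744 normalized counts in ctrl and 17805 and 18611 in Zfp276cko libraries. The libraries held 21068322 to 26599809 counted reads. The ctrl libraries were less alike than the Zfp276cko libraries, with 12.7% against 0.307% of 14324 genes at least 2-fold apart between replicates. Markers of fibroblasts and mural cells summed to 9730 normalized counts in ctrl 1 and to between 325 and 649 in the other libraries. In ctrl 1, ctrl 2, Zfp276cko 1 and Zfp276cko 2, neuronal markers summed to 5254, 7185, 5121 and 5318, but the sum of ctrl 1 was carried by Gap43 and Eno2. The neuronal genes Syt1 (33, 874, 342 and 351) and Gad1 (78, 2002, 920 and 1003), like Rbfox3 (14, 197, 106 and 110) and Snap25 (36, 484, 299 and 357), were far lower in ctrl 1 than in the other libraries. The choice of these genes, and of those named from the microglial and astrocyte lists, was made with the values known. Microglial markers summed to 31968, 15970, 20485 and 22078. Csf1r (11409, 1850, 3085 and 3016) and C1qa (10389, 4375, 4513 and 5847), with P2ry12 and Tmem119, were highest in ctrl 1. Aif1 (1248, 3204, 2770 and 2817) and Cx3cr1 (2290, 2369, 3095 and 2966) were lowest there. Astrocyte markers summed to 45618, 44616, 40999 and 39058, with Gfap higher in ctrl 1 (17641, 8463, 12993 and 12248) and Slc1a3 lower (2674, 6747, 5259 and 5284). In the same order, ependymal markers to 471, 419, 323 and 347, and markers of dividing cells to 11195, 18023, 16389 and 16747.

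Microtubules are hollow polymers of α- and β-tubulin heterodimers. They are nucleated on rings that contain γ-tubulin and are modified, bundled and severed by a large set of enzymes and binding proteins. Vertebrates encode α- and β-tubulin in several isotype genes whose products differ mostly in the acidic carboxy-terminal tail, the site of polyglutamylation and of contact with many microtubule-associated proteins. OLs use microtubules to extend processes and to carry myelin mRNAs and vesicles to the growing sheaths. Tubb4a is the β-tubulin typical of OLs, and mutations in its human counterpart cause hypomyelination with atrophy of the basal ganglia and cerebellum. Tppp, the tubulin polymerization-promoting protein, bundles microtubules and is known from OLs, where it is linked to nucleation at Golgi outposts.

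The coding starts of 9 of the genes, and the coding ends of most of these, are shown. These stretches do not tell all of the genes apart. Tuba1a and Tuba1b have the same start in the bases shown. The ends of Tubb2a and Tubb2b differ only between codons for the same amino acid. All sequences were read from GENCODE transcripts of mm10 (GRCm38). The first 18 coding bases follow, 5′ to 3′, with the first 12 in capitals. In α- and β-tubulin mRNAs these 12 bases encode the amino-terminal peptide that the factor Ttc5 recognises on ribosomes when it starts decay of tubulin mRNA at high levels of free tubulin.
Tubb4a: ATGCGGGAAATCgtgcac
Tubb2a: ATGCGCGAGATCgtgcac
Tubb2b: ATGCGAGAGATCgtgcac
Tubb5: ATGAGGGAAATCgtgcac
Tuba1a: ATGCGTGAGTGCatctcc
Tuba1b: ATGCGTGAGTGCatctcc
Tuba4a: ATGCGCGAGTGCatttca
Tubg1: ATGCCGAGAGAAatcatc
Tppp: ATGGCTGACAGCaaggcc

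The last 60 coding bases, stop codon included, are given next for 7 of the genes with the glutamate codons in capitals. They encode the tail in the tubulins.
Tubb4a: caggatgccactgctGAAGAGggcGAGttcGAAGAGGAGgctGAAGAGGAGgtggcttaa
Tubb2a: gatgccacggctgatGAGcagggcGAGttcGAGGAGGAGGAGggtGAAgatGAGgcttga
Tubb2b: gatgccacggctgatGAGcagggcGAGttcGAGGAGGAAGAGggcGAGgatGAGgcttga
Tubb5: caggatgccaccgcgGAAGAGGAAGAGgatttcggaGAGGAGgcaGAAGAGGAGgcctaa
Tuba4a: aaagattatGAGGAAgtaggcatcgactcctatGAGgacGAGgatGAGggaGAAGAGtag
Tubg1: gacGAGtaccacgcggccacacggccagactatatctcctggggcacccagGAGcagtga
Tppp: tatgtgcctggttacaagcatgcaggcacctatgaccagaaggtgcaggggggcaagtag

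These 60 bases lie at chr17:57080690-57080749 in Tubb4a, chr13:34074468-34074527 in Tubb2a, chr13:34127471-34127530 in Tubb2b and chr17:35834982-35835041 in Tubb5. They lie at chr1:75215622-75215681 in Tuba4a. In Tubg1 they lie at chr11:101126170-101126229 and in Tppp at chr13:74031356-74031415. All are coding exon, on the plus strand for Tubg1 and Tppp and on the minus strand for the rest. In Tuba1a, Tuba1b and Tuba4a an intron follows the first 3 coding bases, so that the start codon stands apart from the other codons.

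The ends held 9 glutamate codons in Tubb4a and Tubb5, 8 in Tubb2a and Tubb2b and 7 in Tuba4a. Tubg1 held 2 and Tppp 0. The last codon of Tuba4a before the stop codon was GAG for glutamate. Tuba4a thus encodes an α-tubulin that lacks the terminal tyrosine, the residue that is otherwise removed from and added back to α-tubulin in the cell.

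Tubb4a lies at chr17:57080066-57087782 on the minus strand, Tubb5 at chr17:35833921-35838306 on the same strand, and Tubb2a and Tubb2b are neighbours at chr13:34074274-34078007 and chr13:34126748-34130466. Tuba1a and Tuba1b lie in 1 cluster at chr15:98949837-98953703 and chr15:98931425-98934565. Tubb6 is found on chromosome 18, Tuba4a at chr1:75214228-75219865, Tubg1 at chr11:101119938-101126419 and Tppp at chr13:74009407-74035753. The coding parts of Tuba1a and Tuba1b shared 98.3% of their bases and those of Tubb2a and Tubb2b 96.5%. Tubb4a shared between 82.3% and 84.45% with the other β-tubulin genes of the set. A read of 101 nt within the coding part could therefore fit several genes. Of the windows of this length in the Tuba1a transcript, 49.1% also occurred in the annotated transcript of a gene elsewhere, as did 65.4% for Tuba1b, 36.7% for Tubb2a, 27.6% for Tubb2b and 4.0% for Tubg1. For Tubb4a, Tubb5, Tubb6, Tuba4a and Tppp it was 0%. No shared window lay wholly outside the coding part. The study's methods state that unique mappings were counted, which leaves out reads with several matches. Counts of Tuba1a, Tuba1b, Tubb2a and Tubb2b are thus uncertain and would be too low, whereas counts of Tubb4a and Tppp are not touched by such copies.

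Per kb of annotated exon, Tuba1a had the highest level in all 4 libraries, with 42577 and 33019 normalized counts per kb in ctrl and 23843 and 20838 in Zfp276cko libraries. Tubb4a followed in ctrl cells with a mean of 19022 per kb, but its range overlapped that of Tubb2b with a mean of 15506. In Zfp276cko cells Tubb2b was second with 16888 and 14521 per kb and lay above Tubb4a with 11064 and 10142. Tubb5 with a ctrl mean of 6987 per kb and Tubb2a with 3208 came next in both genotypes. In ctrl cells Tuba1b (1101), Tppp (733) and Tubg1 (520) followed, and the range of Tppp overlapped with those of both neighbours. Tubb6 (277) and Tuba4a (159) had the lowest levels per kb. In Zfp276cko cells Tubg1 (492) stood before Tppp (413), and no neighbours in this order overlapped.

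The OL-typical β-tubulin gene Tubb4a and the main α-tubulin gene Tuba1a were the 2 members with the clearest difference between the genotypes, both lower in Zfp276cko cells. Tubb4a had 36555 and 48206 normalized counts in ctrl 1 and ctrl 2 and 24651 and 22596 in Zfp276cko 1 and Zfp276cko 2. Both Zfp276cko libraries were below both ctrl libraries, and the mean was 55.7% of ctrl. The log2 fold change was −0.84 ± 0.19 (SE, n = 2 per genotype) with a 95% interval from −1.35 to −0.33 and an adjusted p of 0.186 in edgeR's quasi-likelihood test. Tubb4a thus missed the threshold of 0.05. In DESeq2, the tool that the study used, the log2 fold change was −0.86 with an adjusted p of 0.00126.

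Tuba1a, the α-tubulin isotype of developing neurons and of differentiating glia, had 76766 and 59534 normalized counts in ctrl and 42990 and 37571 in Zfp276cko libraries. The groups did not overlap, and the Zfp276cko mean was 59.1% of ctrl. The log2 fold change of Tuba1a was −0.76 ± 0.19 (SE) with an interval from −1.28 to −0.23 and an adjusted p of 0.211 with edgeR. DESeq2 gave −0.78 and an adjusted p of 0.00767. The highest Tubb4a value was in ctrl 2, the highest Tuba1a value in ctrl 1.

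Tppp had 2446 and 5029 normalized counts in ctrl and 2175 and 2040 in Zfp276cko libraries. The distance rested mainly on ctrl 2, since ctrl 1 was close to both Zfp276cko libraries. The log2 fold change was −0.83 ± 0.37 (SE) with an interval from −1.82 to 0.17 and an adjusted p of 0.384 with edgeR and 0.211 with DESeq2. Without ctrl 2 it was −0.23 and without ctrl 1 −1.25. The 2 ctrl libraries differed by a factor of 2.06, more than the genotypes did.

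**Figure D1:**
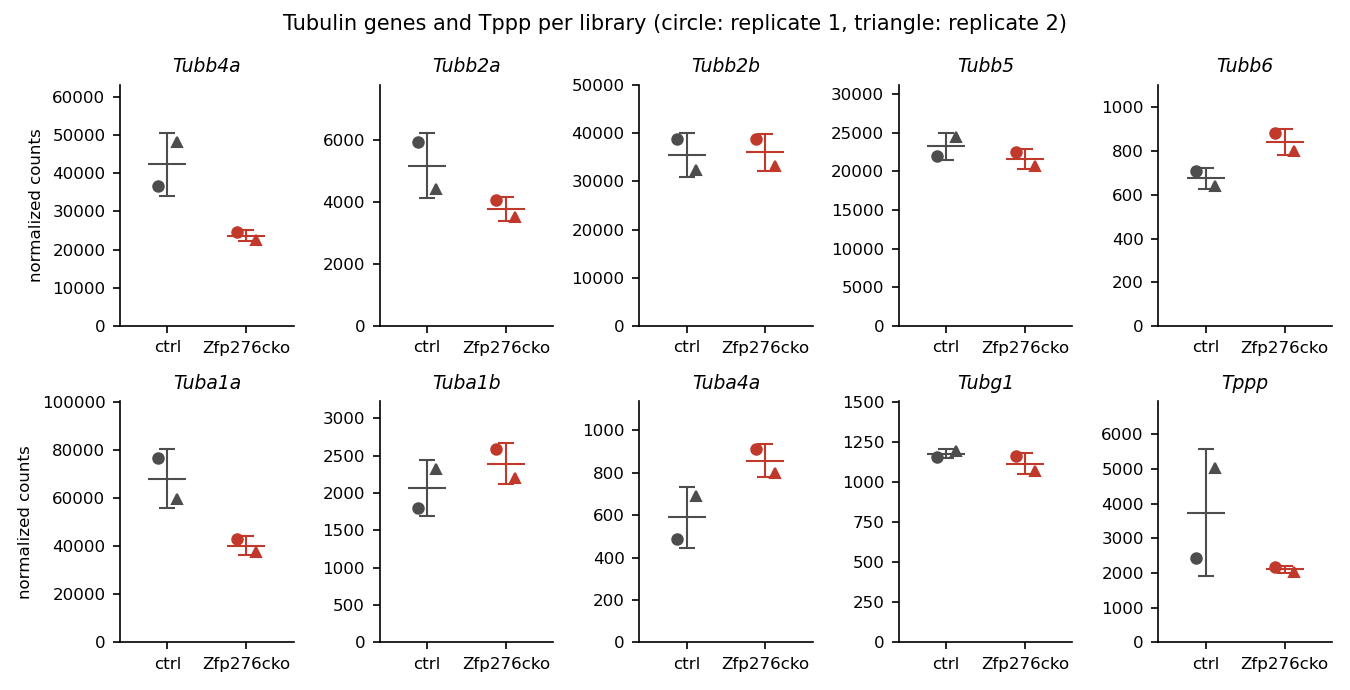
Normalized counts (linear vertical axes from 0, a scale of its own per gene) of the 10 genes in the 2 ctrl and 2 Zfp276cko libraries, with the mean as a line and the SD as bars. Tubb4a, Tubb2a, Tuba1a and Tppp have both Zfp276cko libraries below both ctrl libraries, and Tubb6 and Tuba4a have both above.

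Among the remaining β-tubulin genes, Tubb2a was lower and Tubb2b was level. Tubb2a had 5913 and 4417 normalized counts in ctrl and 4047 and 3503 in Zfp276cko libraries, without overlap. Its fold change on the log2 scale was −0.45 ± 0.18 (SE, edgeR adjusted p = 0.352). Tubb2b, a β-tubulin of newborn neurons and glia, had 38785 and 32356 in ctrl and 38741 and 33311 in Zfp276cko libraries. Its log2 fold change was 0.02 with an interval from −0.44 to 0.47, so that the interval still includes moderate changes in either direction.

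Tubb5, the most broadly expressed β-tubulin, had 22003 and 24485 normalized counts in ctrl and 22515 and 20644 in Zfp276cko libraries, with overlap between the genotypes. For Tubb5 the log2 fold change was −0.11 with an interval from −0.46 to 0.25. Tubb6, a β-tubulin of many non-neural tissues, had 710 and 641 in ctrl and 884 and 801 in Zfp276cko libraries, so that the Zfp276cko pair was the higher. The log2 fold change of Tubb6 was 0.32 ± 0.13 (SE, edgeR adjusted p = 0.345).

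The 2 low α-tubulin genes were at or above the ctrl level. Tuba1b had 1801 and 2327 normalized counts in ctrl and 2585 and 2201 in Zfp276cko libraries, which overlapped. For Tuba1b the log2 fold change was 0.21 with an interval from −0.25 to 0.68. Tuba4a had 488 and 692 in ctrl and 910 and 801 in Zfp276cko libraries, or 145% of the ctrl mean without overlap. The log2 fold change of Tuba4a was 0.54 ± 0.21 (SE) with an interval from −0.04 to 1.11 and an adjusted p of 0.346 with edgeR. It was 0.31 without ctrl 1 and 0.80 without ctrl 2. Exons of Tuba4a lie over 1379 nt opposite to exons of Stk16, and as the strand setting of the counting is not given in the sources used here, reads of both cannot be told apart. Stk16 itself had 1282 and 1132 normalized counts in ctrl and 1167 and 1083 in Zfp276cko libraries.

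Tubg1 encodes the γ-tubulin of the nucleating ring. It had 1159 and 1196 normalized counts in ctrl and 1160 and 1069 in Zfp276cko libraries. The groups overlapped, and the log2 fold change was −0.08 with an interval from −0.34 to 0.18.

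**Figure D2:**
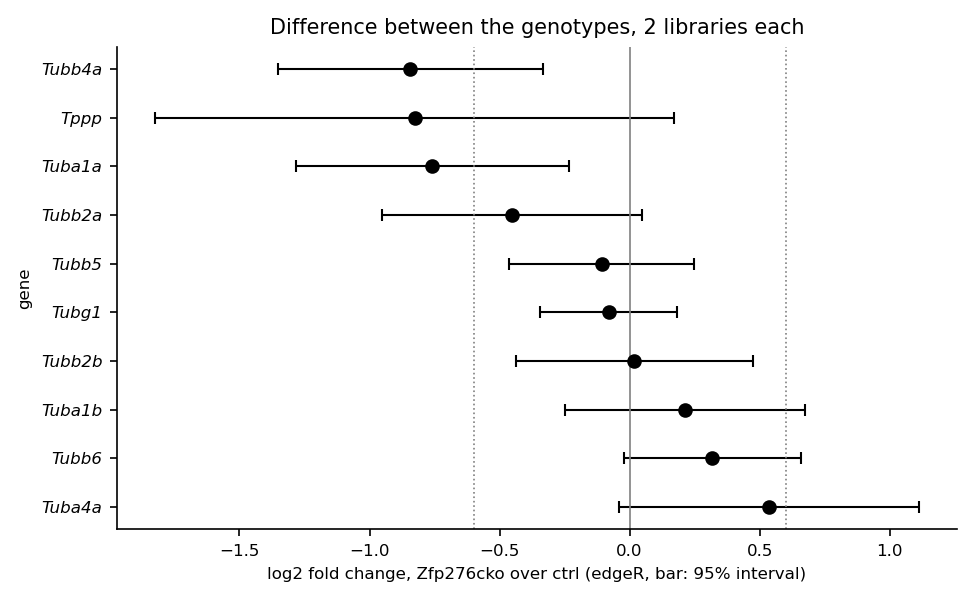
Log2 fold change of Zfp276cko over ctrl cells for each gene (points) with its 95% interval from edgeR (bars), 2 libraries per genotype, and dotted lines at 0.6 on either side of 0. The intervals of Tubb4a (−1.35 to −0.33) and Tuba1a (−1.28 to −0.23) lie wholly below 0, and those of the other 8 genes include 0.

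Of the 10 genes, 0 passed an adjusted p of 0.05 with edgeR, where 0% of 15766 tested genes were called in either direction and the smallest adjusted p was 0.0725. When the p was taken without adjustment (threshold 0.05, log2 fold change past 0.6 and mean of 20 normalized counts as before), 2 genes were lower, Tubb4a and Tuba1a, beside 3.02% of all genes, and 0 were higher, beside 5.11%. DESeq2 called the same 2 genes lower, beside 2.11% of 15896 genes, and 0 higher, beside 2.80%. limma voom called 0. With ctrl 1 left out edgeR called 2 genes lower, Tubb4a and Tppp, beside 6.03% of all genes, and 0 higher, beside 10.7%. With ctrl 2 left out it called 3 lower (Tubb4a, Tuba1a, Tubb2a), beside 7.95%, and 1 higher (Tuba4a), beside 11.4%. In those fits the spread comes from the 2 close Zfp276cko libraries alone. The Zfp276cko values were both under the ctrl values for 4 of the 10 genes, beside 24.8% of the 14324 genes with a mean of at least 20, and over them for 2 genes, beside 26.4%. The median log2 fold change was −0.09 over the 10 genes and −0.01 over those 14324 genes. With 2 libraries against 2, an exact permutation test of any single value cannot go below a p of 0.333.

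Since isotypes are copolymerised, the make-up of the tubulin mRNA was also computed for each library. Of the counts per kb over 8 α-tubulin genes, Tuba1a made up 97.0% and 94.6% in ctrl and 92.1% and 92.2% in Zfp276cko libraries. Tuba1b made up 2.19% and 3.56% in ctrl and 5.32% and 5.19% in Zfp276cko libraries. Tuba4a made up 0.300% and 0.536% against 0.950% and 0.957%. Shares of 1 pool are tied to each other, so that the lower Tuba1a count raises all other α-tubulin shares.

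Of the counts per kb over 8 β-tubulin genes, Tubb4a made up 35.1% and 43.6% in ctrl and 27.0% and 27.9% in Zfp276cko libraries. Tubb2b made up 36.1% and 28.4% in ctrl and 41.2% and 40.0% in Zfp276cko libraries. Tubb4a and Tubb2b thus held similar shares in ctrl 1, Tubb4a held the larger in ctrl 2, and Tubb2b held the larger in both Zfp276cko libraries. Tubb5 made up 14.1% and 14.8% in ctrl and 16.5% and 17.1% in Zfp276cko libraries. Tubb2a shares overlapped, with 7.85% and 5.53% in ctrl and 6.14% and 5.99% in Zfp276cko libraries.

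The Tubb4a share was 39.3% ± 6.0 for ctrl and 27.5% ± 0.64 for Zfp276cko cells (SD, n = 2 each), a difference of −11.9 percentage points that is larger than either SD. It was −7.60 percentage points without ctrl 2 and −16.1 without ctrl 1. For the Tuba1a share the difference was −3.68 percentage points. The sum over all α-tubulin genes was 43916 and 34894 normalized counts per kb in ctrl and 25900 and 22610 in Zfp276cko libraries, or 61.6% of the ctrl mean. The sum over all β-tubulin genes was 46781 and 49647 in ctrl and 40950 and 36315 in Zfp276cko libraries, or 80.1%. The 2 sums did not overlap between the genotypes, and the ratio of α to β counts per kb was 0.939 and 0.703 in ctrl and 0.633 and 0.623 in Zfp276cko libraries. Neither the sums nor the ratio were corrected for windows shared with other genes, which were 49.1% for Tuba1a and 0% for Tubb4a and Tubb5. They therefore cannot show whether α- or β-tubulin mRNA was the more abundant.

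**Figure D3:**
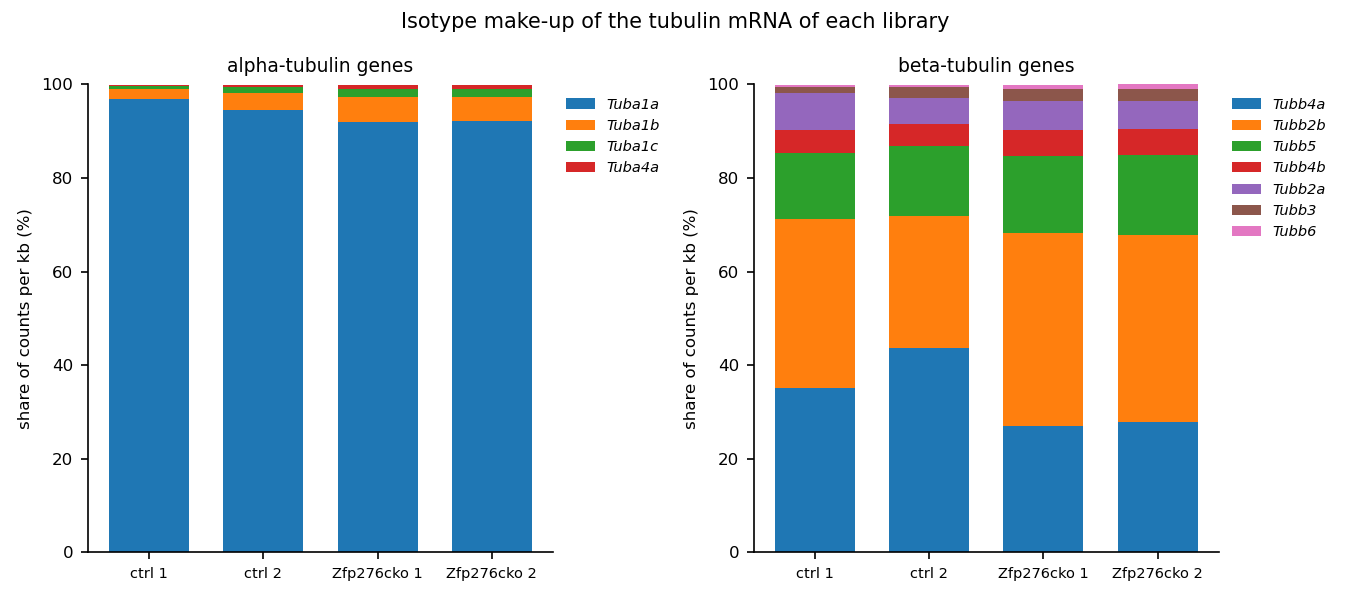
Share in percent of each isotype gene in the counts per kb of the α-tubulin genes (left) and β-tubulin genes (right) of each library, for genes with a share of at least 0.5% in a library. Tuba1a fills 92.1% to 97.0% of the left bars, and the Tubb4a segment is 35.1% and 43.6% in ctrl and 27.0% and 27.9% in Zfp276cko libraries.

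The lower Tubb4a and Tppp values went along with lower values of most OL markers. The 10 markers of the lineage summed to 243990 and 292250 normalized counts in ctrl and 161610 and 163720 in Zfp276cko libraries. Of these, 8 of 10 lay below ctrl, beside 24.8% of all genes with a mean of at least 20. The median log2 fold change was −0.82 over the list. Sox10 and Cldn11 overlapped between the genotypes, at 93.7% and 101% of the ctrl mean. Tppp and the OL marker sum were both highest in ctrl 2. In bulk RNA, fewer cells of a type and less RNA per cell cannot be told apart.

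Tuba1a and Tubb2a were both highest in ctrl 1, the library with the high fibroblast and mural markers. The 6 OPC markers summed to 175540 and 128670 normalized counts in ctrl and 96107 and 94192 in Zfp276cko libraries. Among them Gpr17, a receptor of newly committed OLs, had 113405 and 69766 in ctrl and 43296 and 41092 in Zfp276cko libraries. Gpr17 made up most of the difference between ctrl 1 and the rest: the other 5 summed to 62137, 58900, 52811 and 53100 in the order above. Of the 6 OPC markers, 4 lay below ctrl (Cspg4, Ptprz1, Gpr17 and C1ql1) and 0 above. The shares among all genes with a mean of at least 20 were 24.8% and 26.4%. C1ql1 had 761 and 324 normalized counts in ctrl and 141 and 157 in Zfp276cko libraries. Pdgfra, the receptor that marks OPCs, had 10049 and 15501 against 11842 and 11561 and overlapped, as did Lhfpl3. Pdgfra was named with these values known. Without ctrl 1 the log2 fold change of Tuba1a was −0.56 and that of Tubb2a −0.23. Of the markers of neurons, which are rich in Tuba1a, 2 of 9 tested lay below ctrl (Nefl and Gap43) and 0 above. Among all genes with a mean of at least 20, 24.8% lay below and 26.4% above, so that 2 of 9 is near the general share. Of the 10 neuronal markers, 0 were at 0 in all libraries. Syt1 and Gad1, like Rbfox3 and Snap25, were lowest in ctrl 1, the library with the highest Tuba1a value. Gap43 (2921, 1722, 1584 and 1584) and Eno2 (1635, 727, 824 and 869) were highest there. The part of other cell types in these values was not tested.

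A further 119 genes of the tubulin and microtubule system were listed, of which 105 passed the filter on low counts. With edgeR, 0 of them passed an adjusted p of 0.05. Under the unadjusted rule 8 of 105 were lower and 3 higher, beside 3.02% and 5.11% of all genes. DESeq2 called 7 lower and 1 higher, beside 2.11% and 2.80%. The Zfp276cko values were both under the ctrl values for 36 of the 105 genes and over them for 20, beside 24.8% and 26.4% of all genes with a mean of at least 20. These 2 shares apply to the counts below and above in each list that follows. The median log2 fold change was −0.05.

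No tubulin gene outside the set was called by edgeR or DESeq2. Tubb3, the neuronal β-tubulin, had 1059 and 2137 normalized counts in ctrl and 2003 and 1782 in Zfp276cko libraries, with ctrl 1 far below the rest. Tubb4b, the β-tubulin of cilia, had 4848 and 5002 in ctrl and 4758 and 4155 in Zfp276cko libraries. Tuba1c, nearly identical to Tuba1a and Tuba1b, had 549 and 1004 in ctrl and 962 and 840 in Zfp276cko libraries. Of 7 tested genes of this list, 1 lay below and 3 above ctrl. The 3 were Tuba8, with 14.2 and 14.6 against 24.4 and 30.9 normalized counts, Tube1, the ε-tubulin of centrioles, and Tubg2, the second γ-tubulin gene. Tuba8 passed the unadjusted rule.

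Proteins that bind along the microtubule, listed together with the stathmin genes Stmn1 to Stmn4, made up the list with the lowest median. The median log2 fold change was −0.29 over 18 tested genes. Of these, 10 lay below ctrl and 2 above, and DESeq2 called 4 lower. Map1a had 15252 and 18464 normalized counts in ctrl and 8948 and 9177 in Zfp276cko libraries, with a log2 fold change of −0.90 and an adjusted p of 0.134 with edgeR and 1.24e-05 with DESeq2. Map1b, its relative that is abundant in growing processes, had 32650 and 39885 in ctrl and 21705 and 22465 in Zfp276cko libraries. Both genes encode a heavy and a light chain that stabilise microtubules.

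The other called genes of this list were Map6d1, a relative of Map6, with a log2 fold change of −0.80, and Map7, which recruits kinesin-1 to microtubules, with −0.79. Mapt, which encodes tau, had 10855 and 11417 normalized counts in ctrl and 8550 and 8457 in Zfp276cko libraries, a log2 fold change of −0.39. Its adjusted p was 0.0474 with DESeq2, but it missed the threshold on fold change. Tppp3, a relative of Tppp, had 159 and 212 in ctrl and 206 and 201 in Zfp276cko libraries, which overlapped.

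Of the enzymes that modify tubulin, 20 were tested, with 6 below and 5 above ctrl and a median of 0.03. Sirt2, a deacetylase of α-tubulin that is abundant in OLs, had 38670 and 61080 normalized counts in ctrl and 29108 and 28729 in Zfp276cko libraries. Its log2 fold change was −0.79, with an adjusted p of 0.288 with edgeR and 0.0464 with DESeq2. Without ctrl 2 it was −0.43 and without ctrl 1 −1.08. Ttll5, an enzyme of tubulin polyglutamylation, had a log2 fold change of −0.73 and was called by DESeq2 (adjusted p = 0.0139). Tpgs2, a subunit of another polyglutamylase, had −0.61 and passed the unadjusted rule alone. Hdac6, the second deacetylase of α-tubulin, had 848 and 693 in ctrl and 965 and 875 in Zfp276cko libraries. Agbl5, which trims glutamate chains, had a log2 fold change of 0.32 (edgeR adjusted p = 0.384).

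Folding factors of tubulin differed little in size. Of 22 tested genes, 11 lay below ctrl and 0 above, with a median log2 fold change of −0.16 and 0 genes past the unadjusted rule. All 8 subunits of the TCP1 ring complex, the chaperonin that folds α- and β-tubulin, were among the 11, at 80.3% to 94.6% of the ctrl mean, a subgroup chosen after its values were seen. Tcp1 had 8239 and 7751 normalized counts in ctrl and 6417 and 6427 in Zfp276cko libraries (log2 fold change −0.32, edgeR adjusted p = 0.272), and Cct5, Cct6a and Cct4 had −0.25, −0.22 and −0.19. Ttc5, the factor of tubulin mRNA decay, had 1339 and 1350 in ctrl and 1364 and 1297 in Zfp276cko libraries.

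Of 21 genes of the γ-tubulin ring complex and its anchors, 3 lay below and 6 above ctrl, the latter close to the share among all genes, and the median was −0.02. Haus8, a subunit of the augmin complex that branches new microtubules from old ones, had 316 and 351 normalized counts in ctrl and 525 and 561 in Zfp276cko libraries. Its log2 fold change of 0.70 was called by DESeq2 (adjusted p = 0.0318) and not by edgeR (adjusted p = 0.173). Cdk5rap2, an activator of the ring complex, had a log2 fold change of 0.32, Haus4, another augmin subunit, 0.56, and Nin, which anchors microtubules at the centrosome, −0.52, all with an adjusted p above 0.3 in edgeR.

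Of 17 genes for plus ends and severing, 5 lay below and 4 above ctrl. Slain1, which links end-binding proteins to the polymerase at the plus end, had 2797 and 2876 normalized counts in ctrl and 1730 and 1777 in Zfp276cko libraries. Its log2 fold change was −0.69 ± 0.08 (SE), with an adjusted p of 0.117 with edgeR and 9.30e-05 with DESeq2. Fignl1, a relative of severing enzymes with a known role in DNA repair, had 394 and 611 in ctrl and 890 and 933 in Zfp276cko libraries and passed the unadjusted rule. Clip2 and Katnal1 had log2 fold changes of −0.22 and −0.28.

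**Figure D4:**
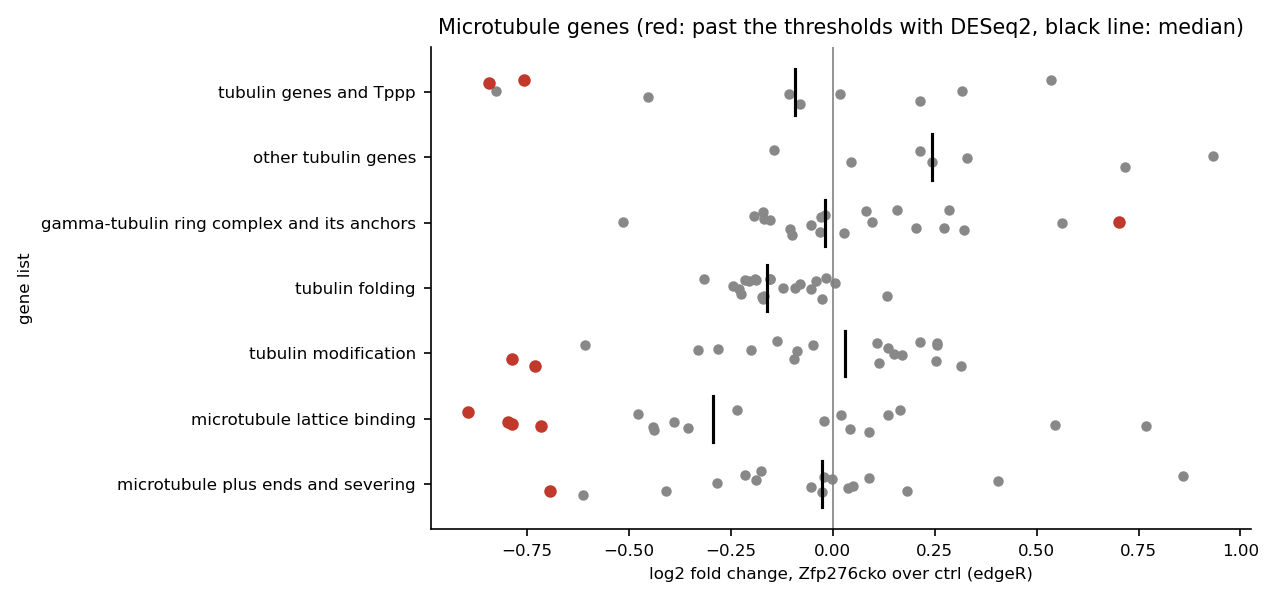
Log2 fold change of Zfp276cko over ctrl cells from edgeR (horizontal axis) for every tested gene of the set and of the 6 further lists, with red points for genes past the thresholds with DESeq2 and black lines at the list medians. The list labelled microtubule lattice binding, which includes the stathmin genes, has the lowest median, −0.29, and 4 red points. Vertical scatter within a list has no meaning.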

How the data were processed

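Per the labels and the study's methods, RNA was sequenced with a stranded poly(A) kit as single reads of 101 nt. Reads were aligned to mm10 with STAR 2.5.4a by the authors, who deposited raw counts for each gene symbol. Their methods name HTSeq and their processing notes featureCounts 1.5.1, and the strand setting is not given in the sources used here. Of 53465 entries, 220 share a symbol and were kept apart. Counted reads per library numbered 21311469 (ctrl 1), 21068322 (ctrl 2), 25265366 (Zfp276cko 1) and 26599809 (Zfp276cko 2).

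With R 4.3.3, edgeR 4.0.16 kept 15766 genes (filterByExpr, 99.9% of counts), normalized with TMM and compared the genotypes with the quasi-likelihood test and Benjamini-Hochberg adjustment over all genes. Calls required adjusted p ≤ 0.05, a log2 fold change of 0.6 or more in either direction and 20 or more normalized counts on average. DESeq2 1.42.0 and limma 3.58.1 were alternatives, beside other size factors and filters, a replicate block and leaving out each library.

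Positions, exon unions and transcripts came from GENCODE M21 (GRCm38). Shares divide counts by exon length. Windows of 101 nt were compared with annotated transcripts of other genes, leaving out a read-through model at the same place. Named were the 10 members, Zfp276, Sox10, the 4 genes with the smallest p of each further microtubule list, and Tubb3, Tubb4b, Tuba1c, Tppp3, Mapt, Map1b, Sirt2, Hdac6 and Ttc5, plus the highest and lowest marker of each cell type. Members and lists were chosen with earlier results of these data known. Itgam, listed in 2 entries, was left out of the microglial list. The deviations of same-numbered libraries showed almost no correlation (r = 0.0067 over 14324 genes). As the 2 Zfp276cko libraries were nearly alike, this cannot tell whether the preparations were paired. p-values measure the spread between these preparations, and other data of the study were not analysed here. Some sequences and genes that these rules cover are not reported here.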

Additional observations from a re-analysis of the deposited data

How the results depend on the processing

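With all 4 libraries, edgeR called 0 of the 10 genes, 0 of the other microtubule genes and 0 of all genes, also with the size factors of DESeq2, at least 10 counts in every library, a threshold on the adjusted p alone, and limma voom. Without a filter on low counts the counts were 0, 0 and 8. DESeq2 called 2, 8 and 780 genes, and an unadjusted p 2, 11 and 1282. Leaving out 1 library gave 0 to 4 of the 10 genes, 0 to 16 of the other microtubule genes and 0 to 3052 of all genes. Without ctrl 1 the calls were Tubb4a and Tppp, and without ctrl 2 they were Tubb4a, Tuba1a and Tubb2a (lower) and Tuba4a (higher). These fits have 1 residual degree of freedom, which comes from the 2 close Zfp276cko libraries, and assume that the lone ctrl library varies like them. Without a Zfp276cko library the count was 0.

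Libraries share only a number across the genotypes, and with a replicate block 0 of the 10 genes, 0 of the other microtubule genes and 0 of all genes were called. Log2 fold changes that turned their sign with the block were those of Gfap (0.046) and P2ry12 (0.25), with limma voom those of Gfap (0.043), P2ry12 (0.36) and Lum (0.21), and without a filter on low counts that of Ttc5 (0.0082).

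With 1 library left out, signs turned for Tubb2b (range −0.12 to 0.16, below 0 without ctrl 2 and without Zfp276cko 1) and Ttc5 (−0.052 to 0.020, above 0 without Zfp276cko 2). Without ctrl 1 they turned for Tubb3 (−0.18, range to 0.83), Tuba1c (−0.16, to 0.70), Tppp3 (−0.054, to 0.34), Gja1 (−0.12, to 1.09), Mki67 (−0.19, to 0.64), Gfap (0.58, range from −0.49), P2ry12 (1.86, from −1.12), C1qa (0.24, from −1.01), Lum (2.45, from −1.90) and Col1a2 (0.13, from −5.90), and for the Tubb2a share (0.539 percentage points, from −1.79). The cause was not tested.

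The difference in share was −3.68 percentage points for Tuba1a (−4.84 to −2.51 with a library left out) and −11.9 for Tubb4a (−16.1 to −7.60). With counts not divided by length it was −4.43 and −11.5, with the length of 1 transcript −4.07 and −11.4, and with windows found in no other gene −4.83 and −10.2, both lengths chosen after seeing the data. Windows over the whole genome were not run. Every tubulin gene of the set and Tppp had 411 or more reads in each library. Only 2 preparations per genotype limit the precision, and their spread was not set against counting error.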
